A study of Arabidopsis thaliana with 12 samples.

Results

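The 10 genes followed here belong to the cold and dehydration response of Arabidopsis thaliana and were measured in a heat experiment. They are the chloroplast proteins COR15A (AT2G42540) and COR15B (AT2G42530), the small proteins KIN1 (AT5G15960) and KIN2 (AT5G15970), the acidic dehydrins COR47 (AT1G20440), ERD10 (AT1G20450) and ERD14 (AT1G76180), the glycine-rich dehydrin RAB18 (AT5G66400), and RD29A (AT5G52310) and RD29B (AT5G52300). They were chosen by locus, as 10 of the 33330 features of the count table, with earlier results of these data known. Counts of calls among them, set beside shares of all genes, are therefore descriptions and not tests. RNA was sequenced from whole seedlings 6 days old, of wild type (WT) and of a genotype labelled as an hd2b hd2c knockout. Seedlings grew on sucrose medium at 22 °C and were sampled there (normal) or after 3 h at 44 °C (heat). This gives 4 groups of 3 libraries, each genotype at each temperature. HD2B and HD2C encode plant-specific histone deacetylases; the labels name no mutant allele and no ecotype. Since separate cultures or plants are not stated for the replicates, p-values reflect library-to-library spread alone, which may be technical.

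Cold-regulated (COR) and dehydration-responsive genes are induced when plants cool, dry out or receive abscisic acid. In cold, the CBF factors (also called DREB1) bind a DNA element with the core CCGAC, the dehydration-responsive element. In drought and high salt the related DREB2 factors bind the same core, and abscisic acid acts through ABF factors at elements with the core ACGTG. COR15A and COR15B are imported into chloroplasts, where they protect membranes during freezing, and dehydrins are disordered hydrophilic proteins that protect membranes and proteins during water loss. HD2C has been described, with the WD40 protein HOS15, as a repressor of COR genes before cold.

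The elements of these factors are shown for COR15A and KIN1, with the lowest adjusted p of the 10 between genotypes at normal temperature, for KIN2, the near copy of KIN1, and for the neighbours RD29A and RD29B, whose elements contrast. The windows of 250 bases before the annotated gene start were read from the TAIR10.1 genome, on the gene's strand and 5′ to 3′. Capitals mark CCGAC, and likewise ACGTG, on either strand.
COR15A, chr2:17712331-17712580, minus strand: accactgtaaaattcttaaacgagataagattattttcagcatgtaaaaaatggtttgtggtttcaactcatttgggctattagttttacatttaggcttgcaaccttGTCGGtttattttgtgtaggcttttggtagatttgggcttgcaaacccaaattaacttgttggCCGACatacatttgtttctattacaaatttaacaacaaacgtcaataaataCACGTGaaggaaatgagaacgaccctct
KIN1, chr5:5209467-5209716, plus strand: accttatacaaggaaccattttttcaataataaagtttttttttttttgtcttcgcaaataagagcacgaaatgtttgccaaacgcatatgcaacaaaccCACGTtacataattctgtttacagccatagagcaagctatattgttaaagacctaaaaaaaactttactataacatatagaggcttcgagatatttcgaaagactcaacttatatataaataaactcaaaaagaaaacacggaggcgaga
KIN2, chr5:5211469-5211718, plus strand: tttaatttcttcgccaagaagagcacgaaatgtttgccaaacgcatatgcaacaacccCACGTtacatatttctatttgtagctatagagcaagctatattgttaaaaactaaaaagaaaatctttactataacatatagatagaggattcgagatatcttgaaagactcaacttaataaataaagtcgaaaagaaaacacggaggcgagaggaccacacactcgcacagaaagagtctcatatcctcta
RD29A, chr5:21240467-21240716, plus strand: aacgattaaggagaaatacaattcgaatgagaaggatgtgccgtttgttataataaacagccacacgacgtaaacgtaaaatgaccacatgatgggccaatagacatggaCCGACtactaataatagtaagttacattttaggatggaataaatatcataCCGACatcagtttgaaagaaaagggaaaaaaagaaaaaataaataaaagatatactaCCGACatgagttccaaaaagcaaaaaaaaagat
RD29B, chr5:21236771-21237020, plus strand: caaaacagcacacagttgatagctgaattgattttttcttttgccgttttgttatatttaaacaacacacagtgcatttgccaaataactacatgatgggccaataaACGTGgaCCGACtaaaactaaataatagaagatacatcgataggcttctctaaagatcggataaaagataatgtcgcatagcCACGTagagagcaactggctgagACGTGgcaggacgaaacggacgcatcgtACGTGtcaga
RD29A held 3 matches to CCGAC and none to ACGTG, whereas RD29B held 1 and 4. The windows of KIN1 and KIN2 each held a single ACGTG match inside a similar stretch. Searched on both strands, CCGAC lay in the 250-base windows of 3 of the 10 genes, against 12% of 27443 promoters. ACGTG lay in 6 of 10, against 22.9%, and the heat shock factor core GAANNTTC in 0 of 10, against 9.55%. No match overlapped one of another motif. The windows of COR15B and RAB18 lay largely or wholly in exons of neighbouring genes and are not shown.

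Many matches lie downstream of the annotated gene start, so a window of 500 bases before the start codon was added after seeing the data. CCGAC then occurred in 9 of 10 genes, against 23.4% of promoters, ACGTG in 9 of 10, against 34.9%, and GAANNTTC in 2 of 10, against 21%. By annotation this window lay wholly in exons for COR15B, COR47 and RAB18, and 499 of its 500 bases did for ERD10. For RAB18 these included exons of a neighbouring gene. ERD14 was the gene with no CCGAC. In this window RD29A held 4 matches to CCGAC and 1 to ACGTG, and RD29B held 1 and 4. With each strand counted, KIN1 then held 5 matches to ACGTG and KIN2 held 7. For each gene of 3 neighbouring pairs, 1 CCGAC match before the start codon is printed in capitals with 10 bases on either side, to set the neighbours side by side. The farther COR15A match and 3 of the 4 RD29A matches and the RD29B match lie in the windows above. ERD10 held 3 matches in tandem, of which the capitals mark the first. RAB18 and the remaining RD29A match are not shown.
COR15A, chr2:17712218-17712242, minus strand, -266 from the start codon: aatttcatggCCGACctgctttttt
COR15B, chr2:17710124-17710148, minus strand, -265 from the start codon: aacttgatggCCGACctcttttttc
KIN1, chr5:5209804-5209828, plus strand, -178 from the start codon: taaatagctaCCGACataaggcaaa
KIN2, chr5:5211771-5211795, plus strand, -185 from the start codon: taaaaagctaCCGACataaggcaaa
COR47, chr1:7085918-7085942, minus strand, -268 from the start codon: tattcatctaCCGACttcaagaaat
ERD10, chr1:7089371-7089395, minus strand, -278 from the start codon: tattcatccaCCGACcgaccgacgt
A match is a description of the letters and not of binding.

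Libraries held 7737285 to 24030931 counts, and all 10 genes passed the filter on low counts. Levels are CPM, counts scaled to a common library size, with normalisation factors from the trimmed mean of M values (TMM). These factors were 1.62 to 1.86 at normal temperature and 0.424 to 0.744 after heat. In hd2b hd2c heat, replicate 2 differed most from its group, with the fewest counts and 34.1% of them in 10 genes. HD2B was at 40 ± 3 CPM (SD, n = 3) in WT normal and 23.8 ± 2.76 in hd2b hd2c normal, and at 85.8 ± 4.97 and 18.6 ± 4.75 after heat. HD2C was at 37.3 ± 2.4 in WT normal and 98.1 ± 6.97 in hd2b hd2c normal, and at 149 ± 4.69 and 324 ± 30.2 after heat. HD2C was thus higher in every library labelled hd2b hd2c, which goes against that label as far as its transcript level tells. Where a genotype direction is given, it compares the libraries labelled hd2b hd2c with those labelled WT.

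Of the 10 genes, COR15A, COR15B and KIN1 were higher in the libraries labelled hd2b hd2c at normal temperature and none passed as lower. After heat COR15A, COR15B and RAB18 were higher and the dehydrin genes COR47 and ERD10 were lower. The test was edgeR's quasi-likelihood F test with Benjamini-Hochberg adjustment over all 20232 genes tested, called at an adjusted p under 0.05. Among all genes 2.65% were called at normal temperature (0.979% higher and 1.67% lower), and 2.76% after heat (1.59% higher and 1.18% lower). At an unadjusted p under 0.05, 4 of the 10 were higher and 2 lower at normal temperature, and DESeq2 called COR47 lower. All 3 hd2b hd2c libraries lay above all 3 WT libraries for 3 of the 10 genes at normal temperature and 4 after heat, where 11.7% and 8.97% of all genes did. They lay below for 1 and 3 of the 10, where 13.7% and 8.66% of all genes did. The median log2 fold change of the 10 genes was 0.43 at normal temperature and 0.23 after heat, against 0.00 for all genes in both.

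COR15A, whose product is a chloroplast stroma protein, stood at 45.1, 63.9 and 66.4 CPM in the WT normal libraries and at 156, 118 and 88.5 in hd2b hd2c normal. After heat it stood at 65.4, 50.8 and 60.1 in WT and at 134, 148 and 136 in hd2b hd2c. Every library labelled hd2b hd2c lay above every WT library at both temperatures. The log2 fold change was 1.05 (SE 0.168, adjusted p = 0.000915 by edgeR) at normal temperature, or 2.07-fold, and 1.24 (SE 0.172, adjusted p = 0.000257) after heat, or 2.37-fold. It was called in all 19 alternative fits at each temperature. SE values here are derived from the F statistic.

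COR15B, the neighbour and close relative of COR15A, stood at 43.6, 56.2 and 58.8 CPM in WT normal and 104, 66.7 and 76.2 in hd2b hd2c normal. After heat the values were 71.7, 63.5 and 74.2 in WT and 110, 102 and 111 in hd2b hd2c. The groups did not overlap at either temperature, although the margin at normal temperature was small. On the log2 scale the fold change was 0.64 (SE 0.143, adjusted p = 0.0128 by edgeR) at normal temperature and 0.63 (SE 0.145, adjusted p = 0.0219) after heat. The first call was lost without WT normal replicate 1 (0.52, adjusted p = 0.113) or hd2b hd2c normal replicate 1 (0.44, 0.141). The second was lost without WT heat replicate 1 (adjusted p = 0.0592) or replicate 2 (0.106), and without hd2b hd2c heat replicate 1 (0.0917) or replicate 3 (0.0605). COR15B overlaps AT2G42520 on the opposite strand by 468 bases, and whether counting used strand is not given in the sources used here. The AT2G42520 log2 difference between genotypes was 0.01 (SE 0.13) at normal temperature and 0.00 (SE 0.13) after heat.

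KIN1, a small hydrophilic protein gene, had 2.14, 2.12 and 4.53 CPM in WT normal and 8.28, 8.78 and 7.64 in hd2b hd2c normal. After heat it had 20, 22.3 and 28.1 in WT and 21.6, 19.5 and 31.2 in hd2b hd2c. KIN1 had 246 counts over WT normal, against 33130 for its near copy KIN2. The part of reads shared with KIN2 in the KIN1 values was not tested. The genotypes lay apart at normal temperature and overlapped after heat. The log2 fold change was 1.48 (SE 0.242, adjusted p = 0.00107 by edgeR) at normal temperature, called in all 19 alternatives, and 0.07 (SE 0.222, adjusted p = 0.913) after heat. The difference between these values, tested as the genotype by heat interaction, was -1.41 (SE 0.328, adjusted p = 0.0681 by edgeR) and is not called. It passed in 6 of 18 alternatives, among them the fits without WT normal replicate 3 (-1.88, adjusted p = 0.00488), without hd2b hd2c heat replicate 2 (-1.31, 0.0295) or replicate 3 (-1.69, 0.0194), DESeq2 (-1.42, 0.0149) and the replicate block (-1.50, 0.0312).

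KIN2, the abundant relative of KIN1, had 346, 400 and 461 CPM in WT normal and 706, 717 and 359 in hd2b hd2c normal. After heat it had 749, 646 and 657 in WT and 851, 1091 and 738 in hd2b hd2c. A single library, hd2b hd2c normal replicate 3, lay inside the WT range, and the groups also overlapped after heat. On the log2 scale the fold change was 0.56 (SE 0.201, adjusted p = 0.169 by edgeR) at normal temperature and 0.38 (SE 0.201, adjusted p = 0.348) after heat. Without hd2b hd2c normal replicate 3 the first was 0.82 (adjusted p = 0.0096).

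COR47, an acidic dehydrin gene, had 248, 315 and 302 CPM in WT normal and 228, 223 and 189 in hd2b hd2c normal. After heat the values were 561, 578 and 550 in WT and 357, 344 and 472 in hd2b hd2c. All hd2b hd2c libraries lay below all WT libraries at each temperature. The log2 fold change was -0.44 (SE 0.137, adjusted p = 0.101 by edgeR) at normal temperature and -0.52 (SE 0.138, adjusted p = 0.0407) after heat. The call after heat held in 7 of 19 alternatives, with adjusted p from 0.00337 to 0.484, and among the 12 fits that each left out 1 library it held in 3.

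ERD10, a second acidic dehydrin gene beside COR47, had 85.3, 122 and 116 CPM in WT normal and 109, 102 and 83.4 in hd2b hd2c normal. After heat it had 272, 258 and 267 in WT and 153, 189 and 210 in hd2b hd2c. The groups overlapped at normal temperature and lay apart after heat. On the log2 scale the fold change was -0.14 (SE 0.142, adjusted p = 0.772 by edgeR) at normal temperature and -0.53 (SE 0.143, adjusted p = 0.0464) after heat. This call also held in 7 of 19 alternatives, with adjusted p from 0.00529 to 0.417. The interaction was -0.39 (SE 0.202, adjusted p = 0.595), so the genotype difference is not shown to change with heat.

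The calls of lower COR47 and ERD10 after heat both ended when hd2b hd2c heat replicate 1 was left out (COR47 -0.46, adjusted p = 0.202; ERD10 -0.41, adjusted p = 0.252), and when any of the WT heat libraries was (COR47 0.0755 to 0.13; ERD10 0.0958 to 0.116). They also ended when hd2b hd2c normal replicate 1 or 2 or WT normal replicate 2 or 3 was left out, with adjusted p from 0.0548 to 0.069. For COR47 the fit without WT normal replicate 1 gave 0.0507. Without the divergent library, hd2b hd2c heat replicate 2, all 5 calls after heat stood, at 1.21 for COR15A, 0.67 for COR15B, 0.69 for RAB18, -0.43 for COR47 and -0.54 for ERD10 on the log2 scale.

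ERD14, the remaining acidic dehydrin gene, had 180, 270 and 245 CPM in WT normal and 207, 179 and 175 in hd2b hd2c normal. After heat it had 261, 274 and 259 in WT and 219, 237 and 247 in hd2b hd2c. The genotypes overlapped at normal temperature, and after heat the hd2b hd2c libraries lay lower by a small margin. Neither difference passed, at -0.31 (SE 0.133, adjusted p = 0.291 by edgeR) and -0.17 (SE 0.134, adjusted p = 0.553) on the log2 scale.

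RAB18, a dehydrin gene widely used as a marker of abscisic acid response, had 2.74, 3.38 and 3.96 CPM in WT normal and 4.73, 4.39 and 3.25 in hd2b hd2c normal. After heat it had 15.4, 14 and 15.2 in WT and 25, 33.8 and 22.8 in hd2b hd2c. The genotypes overlapped at normal temperature and lay apart after heat. The log2 fold change was 0.30 (SE 0.204, adjusted p = 0.592 by edgeR) and 0.83 (SE 0.189, adjusted p = 0.0195), with an interaction of 0.53 (SE 0.278, adjusted p = 0.606). The call after heat was lost without WT heat replicate 1 (adjusted p = 0.0525) or replicate 2 (0.0821) and without hd2b hd2c heat replicate 1 (0.0675). RAB18 overlaps PLP3b on the opposite strand by 11 bases, and PLP3b differed between genotypes by -0.24 (SE 0.196) after heat.

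RD29A, a gene much used as a reporter of cold and drought, had 94.8, 141 and 131 CPM in WT normal and 119, 102 and 71.6 in hd2b hd2c normal. After heat it had 169, 150 and 116 in WT and 117, 80.8 and 156 in hd2b hd2c. The genotypes overlapped at both temperatures. The differences were -0.33 (SE 0.226, adjusted p = 0.609 by edgeR) and -0.29 (SE 0.229, adjusted p = 0.58).

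RD29B, its neighbour and an abscisic acid response gene, was near the limit of detection, with 24 counts over the 3 libraries of WT normal and 24 over WT heat, and with 41 and 52 over the matching hd2b hd2c groups. Its levels were 0.132, 0.287 and 0.495 CPM in WT normal and 0.322, 0.382 and 0.619 in hd2b hd2c normal. After heat they were 0.768, 0.618 and 0.586 in WT and 1.4, 0.915 and 1.49 in hd2b hd2c. The genotypes overlapped at normal temperature and lay apart after heat. The log2 differences of 0.56 (SE 0.598, adjusted p = 0.778 by edgeR) and 1.01 (SE 0.601, adjusted p = 0.412) had wide errors and were not called.

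**Figure D1:**
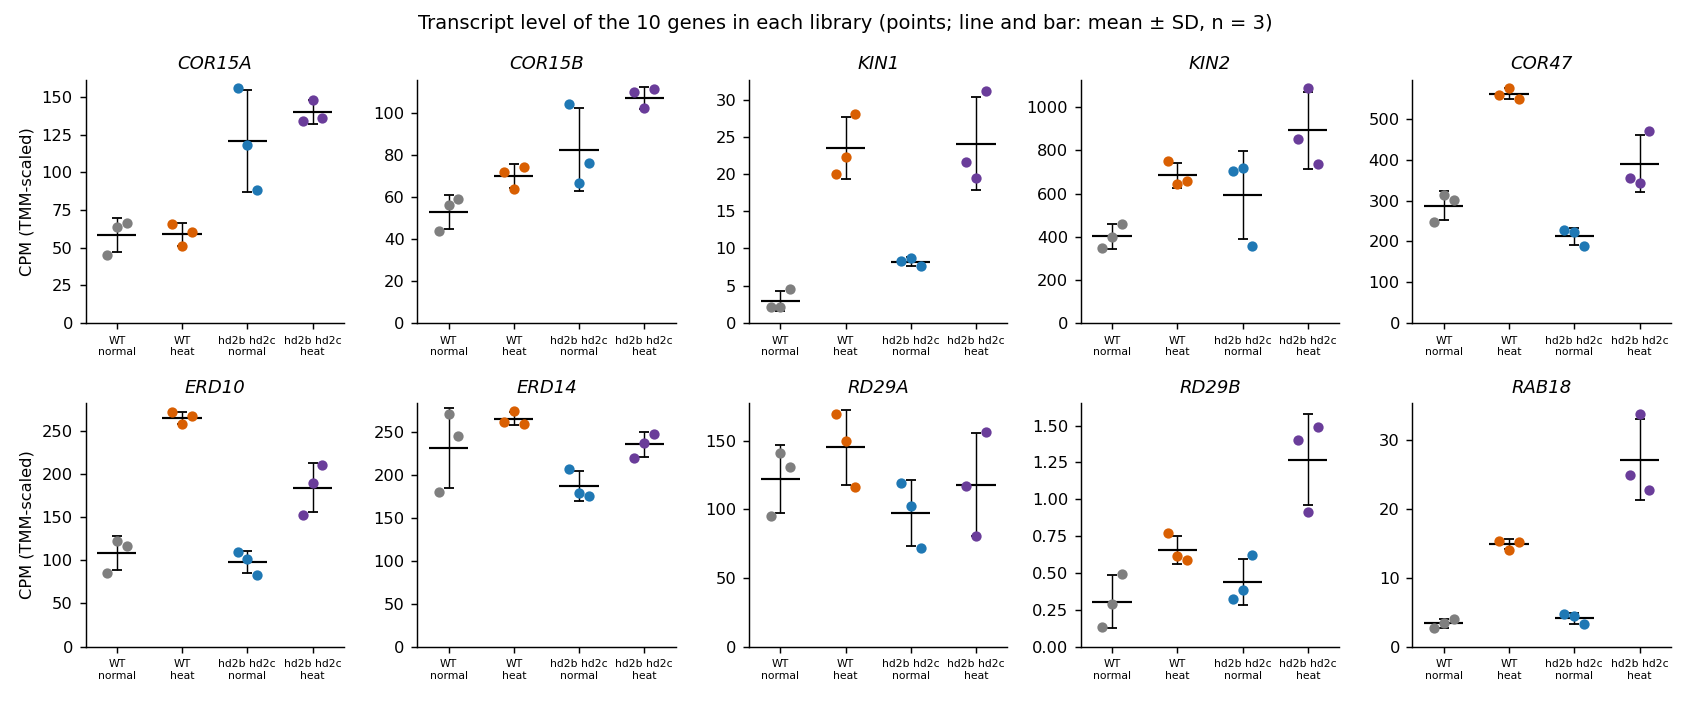
Each panel shows 1 gene, with TMM-scaled CPM on the vertical axis and the 4 groups on the horizontal axis; points are libraries, and the line and bar are the mean and SD of 3 libraries. COR15A is higher in all hd2b hd2c libraries at both temperatures, and KIN1 and RAB18 rise with heat in both genotypes.

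**Figure D2:**
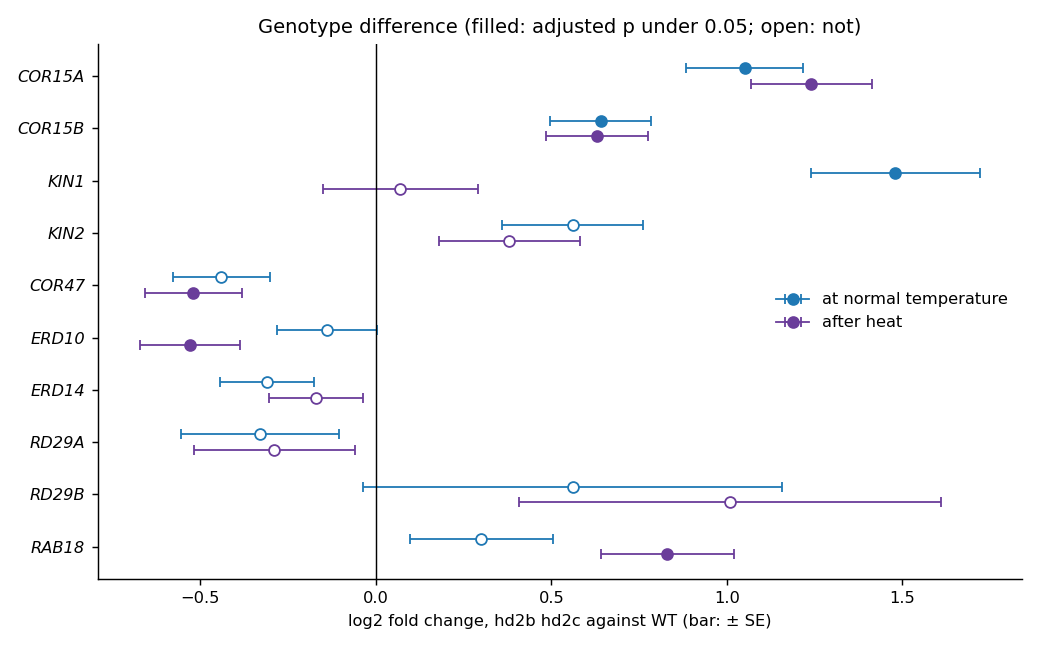
The horizontal axis is the log2 fold change of libraries labelled hd2b hd2c against WT, with bars of 1 SE, at normal temperature and after heat; filled points had an adjusted p under 0.05 by edgeR. COR15A (1.05 and 1.24) and COR15B (0.64 and 0.63) are filled at both temperatures, and KIN1 is filled at normal temperature (1.48).

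Of all genes, 0.336% were called for the genotype by heat interaction (0.148% higher and 0.188% lower), and 0 of the 10 genes were by edgeR. At an unadjusted p under 0.05 only KIN1 of the 10 passed by edgeR, and DESeq2 called 1 of them after adjustment. The interaction estimates of COR15A (0.19, SE 0.238) and COR15B (-0.02, SE 0.203) were smaller than their errors.

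With TMM factors, the largest called heat rises were those of KIN1 and RAB18, with RD29B level with KIN1 in hd2b hd2c (1.58 each); with library totals only KIN1 and RAB18 kept a positive value, while every other heat rise of the 10 genes, except that of RD29B in hd2b hd2c, turned negative. In WT, KIN1 rose by 2.99 on the log2 scale (SE 0.246, adjusted p = 4.35e-10 by edgeR), or 7.94-fold, and RAB18 by 2.15 (SE 0.202, adjusted p = 2.94e-09), or 4.45-fold. In the libraries labelled hd2b hd2c, RAB18 rose by 2.68 (SE 0.198, adjusted p = 5.84e-11) and KIN1 by 1.58 (SE 0.225, adjusted p = 2.55e-06). No library at normal temperature reached a heat library of the same genotype for either gene.

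The acidic dehydrin genes differed in their heat values. ERD10 rose by 1.30 (SE 0.144) in WT and 0.91 (SE 0.144) in hd2b hd2c, and COR47 by 0.97 (SE 0.138) and 0.88 (SE 0.138), each with an adjusted p of at most 9.75e-06 by edgeR. ERD14 changed by 0.19 (SE 0.133, adjusted p = 0.206) in WT, which was not called, and rose by 0.33 (SE 0.134, adjusted p = 0.0388) in hd2b hd2c. That ERD14 call was lost without WT heat replicate 1 or 2 (0.0503 and 0.0521), without hd2b hd2c normal replicate 2 or 3 (both 0.118) and without hd2b hd2c heat replicate 3 (0.178).

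KIN2 rose by 0.77 (SE 0.202, adjusted p = 0.00224 by edgeR) in WT and 0.59 (SE 0.201, adjusted p = 0.0156) in hd2b hd2c. With that divergent library (hd2b hd2c heat replicate 2) left out, the KIN2 value was 0.41 (adjusted p = 0.154), and without hd2b hd2c normal replicate 3 it was 0.32 (0.103). COR15B rose by 0.40 (SE 0.144, adjusted p = 0.0179) in WT and 0.39 (SE 0.143, adjusted p = 0.0231) in hd2b hd2c. In WT the COR15B call was lost without WT normal replicate 1 (0.128) and without WT heat replicate 1 (0.05) or 3 (0.0633). In hd2b hd2c it was lost without normal replicate 2 (0.162) or 3 (0.0845) and without heat replicate 1 (0.0652) or 3 (0.0978). AT2G42520, which shares bases with COR15B on the other strand, rose by 1.63 (SE 0.132) in WT and 1.63 (SE 0.133) in hd2b hd2c, and its part in the COR15B heat value was not tested.

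COR15A changed by 0.01 (SE 0.169, adjusted p = 0.957 by edgeR) in WT and 0.20 (SE 0.167, adjusted p = 0.3) in hd2b hd2c, and RD29A by 0.25 (SE 0.227, 0.349) and 0.29 (SE 0.229, 0.283); none was called. Without hd2b hd2c normal replicate 1 the second COR15A value was 0.43 (adjusted p = 0.0312). RD29B changed by 1.13 (SE 0.636, adjusted p = 0.122) in WT and rose by 1.58 (SE 0.57, adjusted p = 0.02) in hd2b hd2c. That RD29B call was lost without hd2b hd2c normal replicate 1 (0.0819) or 2 (0.0738) and without heat replicate 1 (0.0656) or 3 (0.0911). With TMM factors, heat thus raised 6 of the 10 genes in WT and 8 in hd2b hd2c, where 31% and 29.9% of all genes were called higher. It lowered 0 of the 10 in either genotype, where 34.8% and 31.5% of all genes were called lower, and 0 were lower at an unadjusted p under 0.05 by edgeR or in DESeq2. DESeq2 called 6 higher in each genotype, without COR15B (adjusted p = 0.053) and ERD14 (0.0597) in hd2b hd2c. In all, 65.8% and 61.5% of genes were called. All 3 heat libraries lay above all 3 normal libraries for 7 of the 10 genes in each genotype, where 33.1% and 30.5% of all genes did, and below for 0, where 37.7% and 35.8% did. The 10 genes had medians of 0.87 and 0.73, against -0.14 and -0.12 for all genes.

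These heat directions depend on how libraries are scaled, and the 10 most abundant genes took 7.81% to 13.7% of counts at normal temperature and 16.3% to 34.1% after heat. With library totals only, the median of all genes moved to -1.67 in WT and -1.56 in hd2b hd2c, and 6 and 7 of the 10 genes were called lower, with 2 and 1 called higher. KIN1 and RAB18 kept a positive heat value in both genotypes under each scaling, and so did RD29B in hd2b hd2c. All 10 genes lay above the median of all genes in both genotypes. This is a single observation, since a scaling factor shifts all genes nearly alike and leaves the distance to the median almost as it was. Genes were also ranked by mean level per kilobase of annotated exon, highest first, among 20070 genes. From WT normal to WT heat, KIN2 moved down from 59 to 152 and COR47 from 452 to 552. ERD14, RD29A, COR15A and COR15B also moved down. KIN1 moved up from 11800 to 3206 and RAB18 from 12519 to 5387, and ERD10 and RD29B also moved up. Of all heat calls in WT, 47.1% were higher with TMM factors, 36.8% with upper-quartile factors and 6.05% with library totals; in hd2b hd2c the shares were 48.7%, 36.5% and 5.77%. Together the 10 genes took 0.18%, 0.229% and 0.225% of counts in WT normal and 0.137%, 0.122% and 0.105% in WT heat. For hd2b hd2c the shares were 0.272%, 0.255% and 0.195% at normal temperature and 0.136%, 0.0952% and 0.158% after heat.

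**Figure D3:**
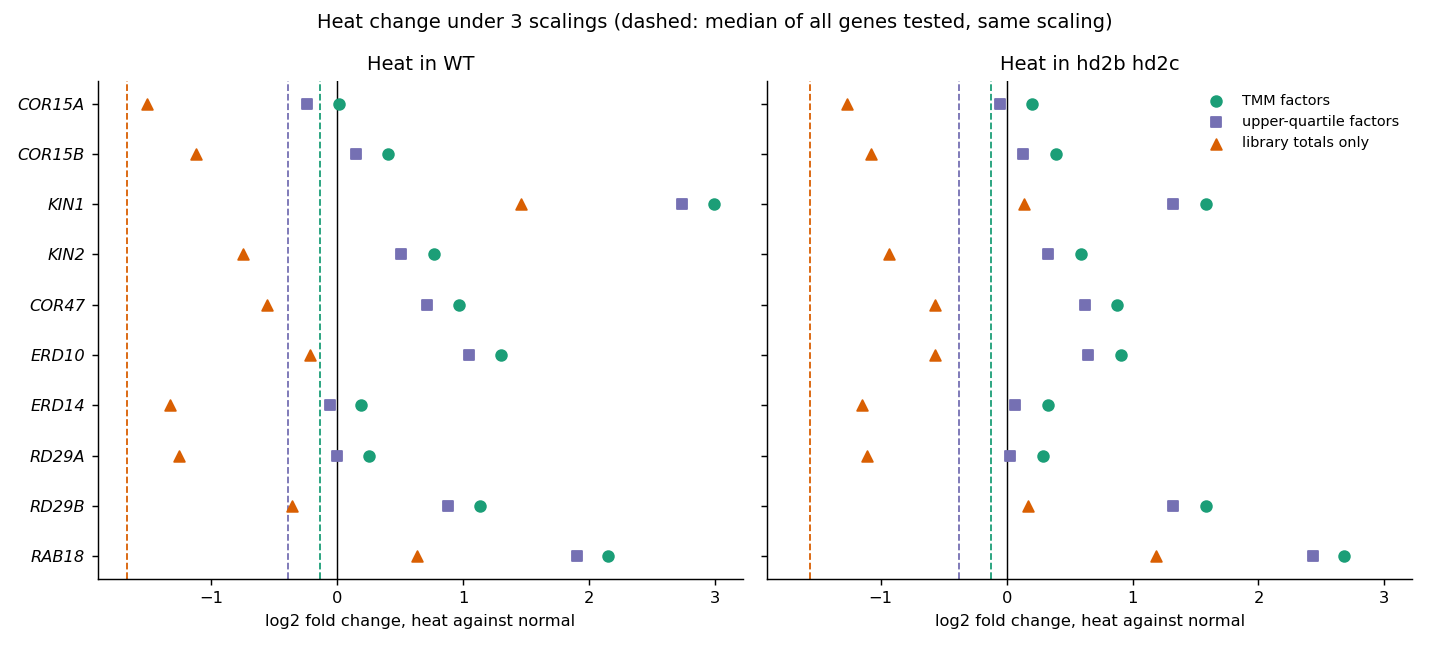
The horizontal axis is the log2 fold change of heat against normal for each of the 10 genes, in WT (left) and hd2b hd2c (right), under 3 scalings; dashed lines are the medians of all genes tested under the same scaling. All 10 genes lie to the right of the matching dashed line, and most fall below 0 with library totals only.

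Markers of cell types moved with heat. Summed over 5 mesophyll genes, the level was 11539 to 13010 CPM in WT normal and 90829 to 129948 in WT heat, and 9506 to 13144 and 61114 to 146269 in hd2b hd2c. The 6 root marker genes summed to 1001 to 1102 and 371 to 411 CPM in WT, and to 746 to 878 and 309 to 370 in hd2b hd2c. All 5 mesophyll genes were called higher and all 6 root genes lower with heat in both genotypes, and edgeR called 0 of either list between genotypes. With heat, 31% of all genes were called higher and 34.8% lower in WT, and 29.9% and 31.5% in hd2b hd2c. These marker values rest on TMM factors, and their values under other scalings are not given here. For the root list at normal temperature, 2 genes were lower at an unadjusted p under 0.05 and DESeq2 called 1 lower. Of 5 guard cell genes 4 fell in WT, and in hd2b hd2c 2 fell and 1 rose, while their summed level was 333 to 428 CPM over all groups. That sum is mostly OST2, with group means of 319 to 405 CPM; the means of KAT1, MYB60, FAMA and EPF1 were at most 11.1 CPM. The 8 seed markers summed to at most 4.67 CPM, none passed the filter, and in each group 1 or 2 were at 0. The part of these markers in the values of the 10 genes was not tested; in whole seedlings, a change in the share of a cell type and a change in RNA per cell cannot be told apart.

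Per kilobase of annotated exon, KIN2 had the highest level of the 10 genes in every group. It was at 536 ± 76.9 CPM per kilobase (SD, n = 3) in WT normal, rank 59 of 20070 genes with a length, and at 1191 ± 241 in hd2b hd2c heat. In WT normal it was followed by ERD14 (196 ± 39.2), COR47 (124 ± 15.4), ERD10 (66.5 ± 12.2), RD29A (46 ± 9.16), COR15A (36.9 ± 7.35) and COR15B (33.4 ± 5.13) CPM per kilobase. The ranges of ERD10 and RD29A overlapped, as did those of RD29A and COR15A and of COR15A and COR15B. KIN1 (3.53 ± 1.67) and RAB18 (3.09 ± 0.561) overlapped far lower, and RD29B was last at 0.14 ± 0.084 CPM per kilobase, rank 19804. In hd2b hd2c normal COR15A ranked above ERD10 at 76.3 ± 21.3 CPM per kilobase, and its range overlapped those of COR47 and ERD10. The order depends on the length used: per kilobase of coding sequence, an alternative added after seeing the data, 19 positions moved and 21 did not, over the 10 genes and 4 groups. In WT normal RD29A (57.4 ± 11.4) then lay below COR15A (139 ± 27.7), ERD10 (136 ± 25) and COR15B (124 ± 19.1) with no overlap, and KIN1 and RAB18 no longer overlapped.

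Most of the 10 genes are neighbours of a relative on the chromosome. COR15A and COR15B lie 7 bases apart with 75.9% identical protein residues, KIN1 and KIN2 892 bases apart with 92.4%, COR47 and ERD10 1029 bases apart with 63.4%, and RD29A and RD29B 1185 bases apart with 45%. KIN1 and KIN2 transcripts share a run of 58 bases, and 1.28% and 1.43% of their 50-base windows occur in the other. How reads with several alignments were counted is not given in the sources used here, so the split of reads between KIN1 and KIN2 is uncertain by what they share. In WT normal KIN1 had 246 counts against 33130 for KIN2, so a small share of KIN2 reads would be large beside KIN1. The part of shared reads in the KIN1 values was not tested.

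The ratio of neighbours within a library does not depend on scaling, and was compared by exact two-sided permutation tests within strata, with p-values adjusted over 8 tests. The smallest p these could give was 0.005. The log2 ratio of COR15A to COR15B was 0.05, 0.18 and 0.17 in WT normal and 0.58, 0.83 and 0.22 in hd2b hd2c normal. After heat it was -0.13, -0.32 and -0.30 in WT and 0.29, 0.55 and 0.29 in hd2b hd2c. It was higher in the libraries labelled hd2b hd2c by 0.52 (exact permutation p = 0.005, adjusted 0.02). The genotypes did not overlap at either temperature, so by these counts COR15A differed more than COR15B. COR15B shares 468 bases with AT2G42520 on the other strand, and the part of that gene in this ratio was not tested. Between heat and normal the COR15A to COR15B ratio differed by -0.28 (exact permutation adjusted p = 0.06).

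The log2 ratio of KIN1 to KIN2 averaged -7.17 ± 0.45 (SD, n = 3) in WT normal and -4.87 ± 0.34 in WT heat, and -6.10 ± 0.48 and -5.21 ± 0.61 in hd2b hd2c. Heat raised it by 1.59 (exact permutation p = 0.01, adjusted 0.02), by 2.30 in WT and 0.89 in hd2b hd2c. Between genotypes it differed by 0.36 (exact permutation adjusted p = 0.335), from 1.07 at normal temperature to -0.34 after heat. The RD29A to RD29B ratio was lower by 1.18 with heat (difference -1.18, exact permutation adjusted p = 0.02) and differed by -1.09 between genotypes (adjusted p = 0.02), with RD29B at few counts. The ratio of COR47 to ERD10 differed by -0.19 with heat (adjusted p = 0.06) and -0.15 between genotypes (adjusted p = 0.0914), and neither passed in these exact permutation tests.

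**Figure D4:**
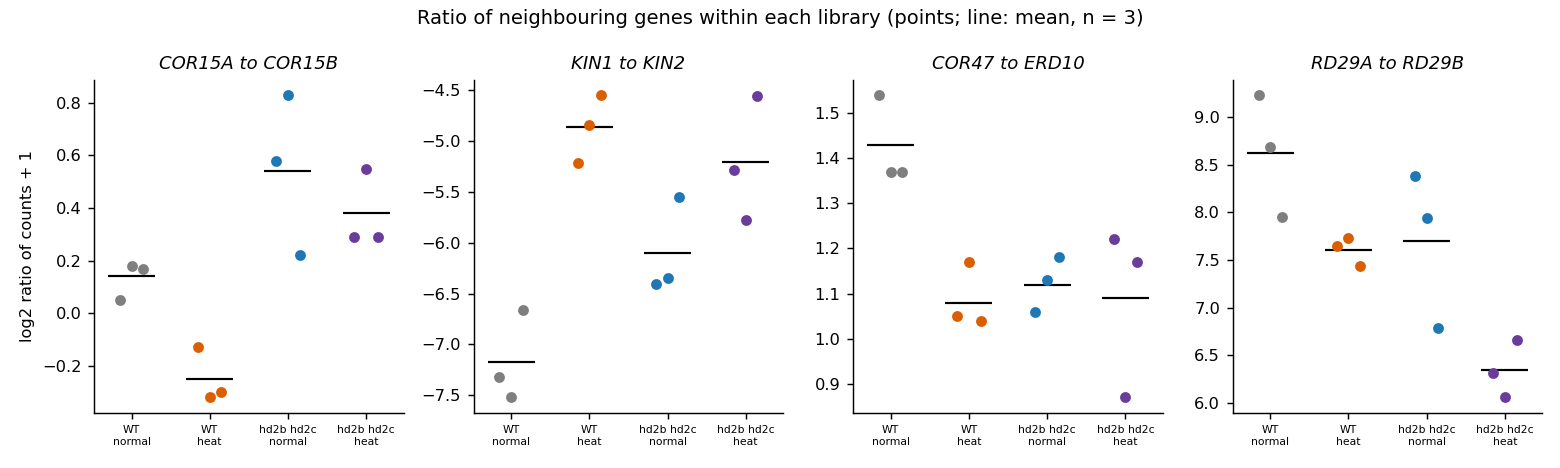
Each panel gives the log2 ratio of counts, with 1 added to each, of 2 neighbouring genes in each library, by group; lines are means of 3 libraries. The COR15A to COR15B ratio is above that of every WT library of the same temperature in all hd2b hd2c libraries, and the mean KIN1 to KIN2 ratio is higher after heat in both genotypes.

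The CBF genes, which encode the activators that bind CCGAC in cold, were higher in the libraries labelled hd2b hd2c at normal temperature. CBF2 was at 0.975, 1.26 and 1.52 CPM in WT normal and 5.27, 6.72 and 6.43 in hd2b hd2c normal, which gave 2.31 on the log2 scale (SE 0.204, adjusted p = 2.59e-07 by edgeR). CBF1 differed by 1.76 (SE 0.316, adjusted p = 0.0024) and CBF3 by 0.71 (SE 0.155, adjusted p = 0.011). The zinc finger repressor gene ZAT10 differed by 2.73 (SE 0.294, adjusted p = 0.000178), and these 4 were the genes called of 17 tested in a list of 20 CBF and ICE cold signalling genes, with 0 called lower by edgeR or DESeq2 and 3 lower at an unadjusted p under 0.05. Of all genes, edgeR called 0.979% higher and 1.67% lower at normal temperature. CBF1, CBF2 and CBF3 are close tandem copies, so reads shared among them are uncertain. The CBF3 call was lost without WT normal replicate 1 (0.60, adjusted p = 0.1) or hd2b hd2c normal replicate 2 (0.64, 0.0789).

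After heat CBF2 stood at 75.9, 58.9 and 90.5 CPM in WT and 115, 137 and 106 in hd2b hd2c, and CBF3 at 39.6, 29.6 and 40.5 and at 59.7, 62.8 and 59.3. CBF2 differed by 0.66 (SE 0.146, adjusted p = 0.0161 by edgeR) and CBF3 by 0.72 (SE 0.139, adjusted p = 0.00507); these were the 2 of 17 that edgeR called, and CBF1 (0.54, SE 0.26, adjusted p = 0.295) was not. Of all genes, edgeR called 1.59% higher and 1.18% lower after heat. At an unadjusted p under 0.05, 3 of the list were higher and 3 lower after heat, and DESeq2 called 2 higher and 1 lower. The CBF2 call was lost without WT heat replicate 1 (0.0503) or 2 (0.0973) and without hd2b hd2c heat replicate 1 (0.0599). CBF4 was not tested: WT held 0 counts at normal temperature and 2 after heat, and hd2b hd2c held 0 and 12.

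Heat itself raised these regulators in both genotypes. CBF2 rose by 5.92 (SE 0.199) in WT and 4.27 (SE 0.169) in hd2b hd2c, CBF1 by 3.68 (SE 0.312) and 2.46 (SE 0.272), and CBF3 by 3.05 (SE 0.155) and 3.06 (SE 0.149), each called by edgeR and in every alternative fit. ZAT12, a zinc finger gene of cold and oxidative stress, rose by 5.16 (SE 0.174) and 5.06 (SE 0.171). Of the 17 tested, 9 rose and 4 fell in WT, where 31% of all genes were called higher and 34.8% lower, and 9 rose and 3 fell in hd2b hd2c, where 29.9% and 31.5% were. The falls were no more frequent than among all genes. HOS15 fell by 1.18 (SE 0.173) in WT and by 0.57 (SE 0.173) in hd2b hd2c, and did not differ in a called way between genotypes (-0.36, SE 0.161, adjusted p = 0.305, and 0.24, SE 0.183, adjusted p = 0.547).

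DREB2A, the drought and heat relative of the CBFs, was at 6.93, 6.82 and 5.91 CPM in WT normal and 621, 541 and 547 in WT heat. In hd2b hd2c it was at 4.73, 3.41 and 3.99 and then at 504, 416 and 577. It rose by 6.44 (SE 0.174, adjusted p = 4.8e-19 by edgeR) in WT and 6.95 (SE 0.179, adjusted p = 2.14e-19) in hd2b hd2c. At normal temperature it was lower in hd2b hd2c by 0.70 (log2 fold change -0.70, SE 0.158, adjusted p = 0.0143), the direction opposite to the CBF genes. This call was lost without WT normal replicate 1 (0.0876) or 2 (0.0829) and without hd2b hd2c normal replicate 2 (0.122) or 3 (0.0624). DREB2B rose by 2.72 and 2.66, and ABF3, an abscisic acid response factor, by 1.35 and 1.79 in WT and hd2b hd2c; the ABF3 value in WT was -0.17 with library totals only. Of 8 DREB2 and ABF genes tested of 9, heat raised 4 in each genotype, where 31% and 29.9% of all genes were called higher, and lowered 0 in WT and 1 in hd2b hd2c, where 34.8% and 31.5% were called lower. Between genotypes DREB2A was the 1 called at normal temperature and 0 were called after heat, where 2.65% and 2.76% of all genes were called. At an unadjusted p under 0.05, 2 were higher and 1 lower after heat, among them DREB2C (0.99, SE 0.291, adjusted p = 0.0692 by edgeR), and DESeq2 called 1.

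**Figure D5:**
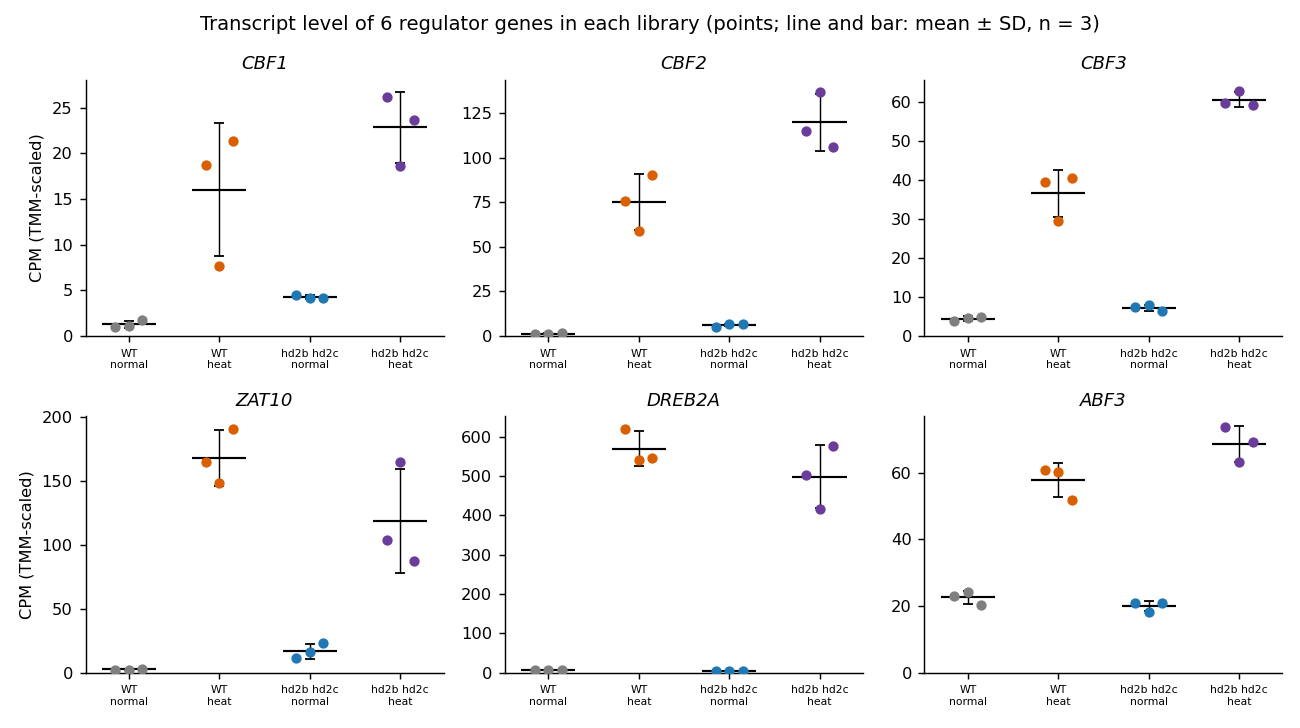
Each panel gives TMM-scaled CPM of 1 regulator gene in each library, with the mean and SD of 3 libraries per group. For CBF1, CBF2, CBF3 and ZAT10 the mean is lowest in WT normal and higher in hd2b hd2c normal, and both lie well below the heat groups. DREB2A is also low in both normal groups, with the lower mean in hd2b hd2c normal.

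Of 6 other dehydrin genes 3 were tested. HIRD11, a small histidine-rich dehydrin gene, was at 307, 395 and 338 CPM in WT normal and 246, 242 and 243 in hd2b hd2c normal, and at 124, 133 and 116 and at 58.1, 61.6 and 85 after heat. It fell with heat by 1.48 (SE 0.138) in WT and by 1.83 (SE 0.141) in hd2b hd2c. It was lower in hd2b hd2c after heat (-0.85, SE 0.139, adjusted p = 0.00137 by edgeR) and at normal temperature (-0.51, SE 0.134, adjusted p = 0.0405). The second of these HIRD11 calls held in 8 of 19 alternatives, with adjusted p up to 0.299 when WT normal replicate 2 was left out and up to 0.641 over all; it was also lost without WT normal replicate 1 or 3, WT heat replicate 1 or 2, or any hd2b hd2c normal library. XERO2 rose with heat by 0.65 (SE 0.21) in WT and 0.76 (SE 0.221) in hd2b hd2c with TMM factors, and had -0.87 and -0.66 with library totals. With upper-quartile factors neither XERO2 value was called (0.40, adjusted p = 0.101, and 0.50, 0.0506). The WT call was also lost without WT normal replicate 2 (0.0581) or WT heat replicate 2 (0.0505), and that in hd2b hd2c without heat replicate 3 (0.119). AT4G38410 had 27 counts in WT normal and 0 in WT heat, and 34 and 7 in hd2b hd2c.

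Of 25 tested among 26 other cold and dehydration genes, heat raised 15 and lowered 3 in WT (31% and 34.8% of all genes) and raised 16 and lowered 3 in hd2b hd2c (29.9% and 31.5%). LEA14, a late embryogenesis abundant protein gene, rose by 2.74 (SE 0.136) and 2.17 (SE 0.133), the galactinol synthase gene GOLS3 by 5.51 (SE 0.3) and 4.82 (SE 0.265), and ERD7 by 1.89 (SE 0.117) and 1.86 (SE 0.117). Between genotypes 3 were higher and 0 lower at normal temperature (2 lower at an unadjusted p under 0.05, 0 by DESeq2), and 1 was higher and 1 lower after heat. Of all genes, 0.979% were called higher and 1.67% lower at normal temperature, and 1.59% and 1.18% after heat. P5CS1, the enzyme of stress-induced proline synthesis, was the gene called at both, at 0.60 (SE 0.127, adjusted p = 0.0087 by edgeR) and 0.77 (SE 0.126, adjusted p = 0.00144). The first P5CS1 call was lost without WT normal replicate 1 (0.0799) or hd2b hd2c normal replicate 1 (0.0861). RD20, a caleosin gene, differed by 1.76 (SE 0.391, adjusted p = 0.0128) and RD22 by 0.52 (SE 0.136, adjusted p = 0.0379) at normal temperature, and ERD15 by -0.44 (SE 0.117, adjusted p = 0.0403) after heat. The RD20 call was lost without WT normal replicate 1 (0.0944) or 2 (0.0909), and the calls of RD22 and ERD15 held in 4 and 3 of 12 fits that left out 1 library, with adjusted p over all alternatives up to 0.286 and 0.39.

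Among 12842 genes that averaged 5 CPM or more, the gene nearest in pattern to each of the 10 was found by the root mean square difference of centred log2 CPM over 12 libraries. COR15A was nearest to AT3G42806.1 (0.289), COR15B to AT1G80570 (0.212), KIN1 to MYB77 (0.332), KIN2 to AT5G17600 (0.161) and COR47 to AT4G34730 (0.143). ERD10 was nearest to EXO70H7 (0.166), ERD14 to VPS41 (0.129), RD29A to ASIL2 (0.159), RD29B to RAE1 (0.303) and RAB18 to AT1G22190 (0.212). AT3G42806.1 differed between genotypes by 1.26 and 1.28 on the log2 scale and with heat by -0.03 and -0.01. MYB77, a transcription factor gene, had a heat value of 2.70 in WT and 1.17 in hd2b hd2c and a genotype value of 1.36 at normal temperature and -0.18 after heat, beside 2.99, 1.58, 1.48 and 0.07 for KIN1. Among the 10 genes themselves, COR47 and ERD10 were nearest to each other (0.171), and so were ERD14 and RD29A (0.251) and COR15A and COR15B (0.333). KIN1 and RAB18 were also nearest to each other, at a larger difference (0.634). KIN2 was nearest to COR15B (0.341).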

How the data were processed

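The authors deposited 1 table of raw, unnormalised gene counts for 12 libraries (7737285 to 24030931 counts). Per the submitters' processing notes, HISAT2 2.1.0, featureCounts 2.0.3 and TAIR10 were used; strand and multiple-alignment settings are not stated there. Genes were kept by filterByExpr (minimum count 10, minimum total 15), leaving 20232. Groups were compared in a single fit with edgeR 4.0.16 (R 4.3.3; TMM factors, robust quasi-likelihood F test, two-sided, Benjamini-Hochberg over all genes). The test was checked on simulated data. Pair ratios used counts plus 1 and 400 exact relabellings. Names, lengths and sequences come from RefSeq TAIR10.1, and gene and protein identity from global alignments.

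The members and lists were chosen with earlier results of these data known. Besides the 10 genes, HD2B and HD2C, the named genes are up to 3 called genes per list and comparison by smallest adjusted p, CBF1 to CBF4, DREB2A, HOS15 and ABF3 throughout, and the nearest pattern of each member; DREB2C was chosen after its values were seen. Alternatives were DESeq2 1.42.0 and its size factors, upper-quartile factors, library totals, no filter, the 2 groups alone, a replicate block and each library left out. No replicates were duplicates: their counts differed by 7.84 to 151 times counting noise (chi-square per gene).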

Additional observations from a re-analysis of the deposited data

Results flagged for a closer look

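By edgeR, 0 of the 10 genes had a called interaction, that is, a heat change that differed between genotypes; KIN1 (-1.41, adjusted p = 0.0681) was called with DESeq2 (-1.42, 0.0149), no filter (-1.42, 0.00167) and the replicate block (-1.50, 0.0312). Of the related genes named, 3 did, by edgeR's quasi-likelihood test of the interaction. Genes were named partly because they were called, so this count is no contrast to the 10. Of the 17 CBF and ICE genes tested 2 were called, both lower, and 0 in each other related list, where 0.336% of all genes were. ZAT10 had an interaction of -3.25 (SE 0.382, adjusted p = 0.00199), with heat changes of 6.05 in WT and 2.80 in the libraries labelled hd2b hd2c. CBF2 had -1.65 (SE 0.253, adjusted p = 0.00252), with 5.92 and 4.27. HD2B, a gene named in the genotype label, had -1.40 (SE 0.195, adjusted p = 0.000928), with a heat change of -0.30 in hd2b hd2c, and levels of 40 and 85.8 CPM in WT normal and WT heat. With library totals only, the CBF2 (-1.62, adjusted p = 0.112) and HD2B (-1.32, 0.574) calls were lost.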

How the results depend on the processing

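For the 114 gene values, 1937 of 2145 combinations with an alternative kept their direction and side of the threshold, 136 lost a call, 18 gained one and 54 changed sign, 41 of these for values not called to begin with. The cause was not tested.

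With library totals only, the heat values in WT were COR15A -1.51, COR15B -1.12, KIN2 -0.75, COR47 -0.56, ERD10 -0.22, ERD14 -1.33, RD29A -1.26, RD29B -0.36, HD2B -0.43, ABF3 -0.17 and XERO2 -0.87. In hd2b hd2c they were COR15A -1.27, COR15B -1.08, KIN2 -0.93, COR47 -0.57, ERD10 -0.57, ERD14 -1.15, RD29A -1.11 and XERO2 -0.66, and the COR15B interaction was 0.05. With upper-quartile factors COR15A had -0.24 in WT and -0.05 in hd2b hd2c, and in WT ERD14 had -0.06 and RD29A -0.00. COR15A in WT had -0.03 with DESeq2 and with its size factors, and -0.00 with no filter.

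Members called higher with heat in hd2b hd2c numbered 5 with upper-quartile factors or the 2 groups alone, 1 with library totals (7 lower) and 5 to 8 with a library left out; in WT, library totals gave 2 higher and 6 lower. Members called lower at normal temperature numbered 1 with the 2 groups alone or DESeq2 and 0 to 1 with a library left out. After heat, members called higher numbered 1 with library totals and 1 to 3 with a library left out. Members called lower after heat numbered 0 with library totals, the replicate block or the 2 groups alone, 1 with DESeq2 size factors and 0 to 2 with a library left out. In the interaction, KIN1 alone, 1 member, was called lower with no filter, the replicate block or DESeq2, and 0 to 1 with a library left out.

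All genes called at normal temperature numbered 536, against 102 with library totals, 1655 with the 2 groups alone and 216 to 1061 with a library left out. After heat they numbered 559, against 53 with library totals, 851 with no filter, 340 with the replicate block, 79 with the 2 groups alone, 985 with DESeq2 and 152 to 1435 with a library left out. In the interaction they numbered 68, against 10 with library totals, 180 with no filter, 207 with DESeq2 and 16 to 339. The highest of each range came without hd2b hd2c heat replicate 2. Between groups, libraries of the same replicate number had correlations from -0.132 to 0.146 in their deviations from the group mean. Differently numbered libraries were not compared, so this does not show whether replicate numbers pair the samples. Members with CCGAC numbered 9, and with GAANNTTC 2, in the window before the start codon.

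With a library left out, values ran from -0.15 to 0.11 for COR15A heat in WT and from -0.00 to 0.47 for RD29A heat in hd2b hd2c. After heat the genotype values ran from -0.20 to 0.22 for KIN1 and -0.02 to 0.42 for HOS15. Interactions ran from -0.15 to 0.19 for COR15B, -0.29 to 0.01 for COR47, -0.24 to 0.24 for RD29A, -0.17 to 0.87 for RD29B and -0.12 to 0.12 for CBF3. The heat ratios ran from -0.36 to -0.21 for COR15A to COR15B and -0.22 to -0.14 for COR47 to ERD10. Depth limits RD29B, with 24 to 52 counts per group.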
